A study of Homo sapiens and Mus musculus with 24 samples.

Results

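The region described is the Myc locus of the mouse with its long downstream flank, chromosome 15 from 61900000 to 64000000, a window of 2.1 Mb. It was chosen by position alone, as the interval that holds Myc, the adjoining gene Pvt1 and the stretch beyond them in which blood enhancers about 1.7 Mb from Myc are known. Its members are all peaks that overlap the window in 12 peak lists of mouse fetal liver. They number 758 of 564622 peaks, of which 344 of 267639 come from the 8 lists of single libraries.

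Fetal liver of embryonic day 14.5 was examined by chromatin immunoprecipitation and sequencing. BRG1 was precipitated from livers of hemogen knockout (KO) embryos and of wild-type (WT) embryos of the same age, with antibody ab110641 in both. Hemogen was precipitated with an HA antibody (ab9110) and acetylated histone H3 lysine 27 (H3K27ac) with antibody ab4729, both from livers labelled WT. Each of these 4 groups had 2 libraries and 1 further list for the group.

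The labels give neither the strain, nor the knockout allele, nor how the HA tag was brought into the WT livers, and no other treatment. H3K27ac and hemogen lists exist here for WT livers only. The labels do not say that libraries of a group came from separate animals, so spreads between libraries may be technical. Whole liver holds several cell types, so fewer cells of a type and less signal per cell cannot be told apart. Promoters of erythroid, hepatocyte and macrophage marker genes were not checked, because no mouse annotation was used here.

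MYC is a transcription factor that drives growth and division of many cell types, blood progenitors among them, and its level falls as red cells mature. Pvt1 is a long noncoding RNA gene downstream of Myc, and enhancers that act on Myc lie both within Pvt1 and far beyond it. BRG1 is the motor subunit of BAF (SWI/SNF) complexes, which slide and evict nucleosomes. Hemogen is found in the nuclei of blood-forming cells, and H3K27ac marks active promoters and enhancers.

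In the mouse map Myc lies in the first 100 kb of the window and Pvt1 follows it over the next steps. This placement is background knowledge. Peaks are therefore given by position on chromosome 15 and are not assigned to a promoter, exon, intron or UTR. Distances are measured from the summit of the strongest WT BRG1 region at the Myc end, position 61985804 in library 1. A region is a stretch of merged peaks that holds at least 1 peak of each library of a group. Its strength is its percentile by −log10 p in each library list, averaged over both, with 100 as the top. Fold means the authors' enrichment over local background at a peak's summit.

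The KO lists held few BRG1 peaks in the Myc window. KO library 1 had 0 of 3205 peaks there, which allows a share of up to 0.0936%, and KO library 2 had 3 of 5592 (0.0536%, 95% Wilson interval 0.0182 to 0.158). WT BRG1 library 1 had 31 of 26329 (0.118%, 0.0830 to 0.167), and WT library 2 had 21 of 21165 (0.0992%, 0.0649 to 0.152). Each KO library had fewer of them than either WT library, while the intervals of their shares overlapped. The window held 1.5 ± 2.12 BRG1 peaks per KO library and 26.0 ± 7.07 per WT library (SD, n = 2 each), a difference of −24.5. An exact two-sided permutation test gave p = 0.33, the smallest value that 2 against 2 libraries can reach, so the difference cannot pass 0.05 in this design. The KO group list had 12 of 13938 peaks in the window (0.0861%) and the WT group list 52 of 37655 (0.138%).

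**Figure D1:**
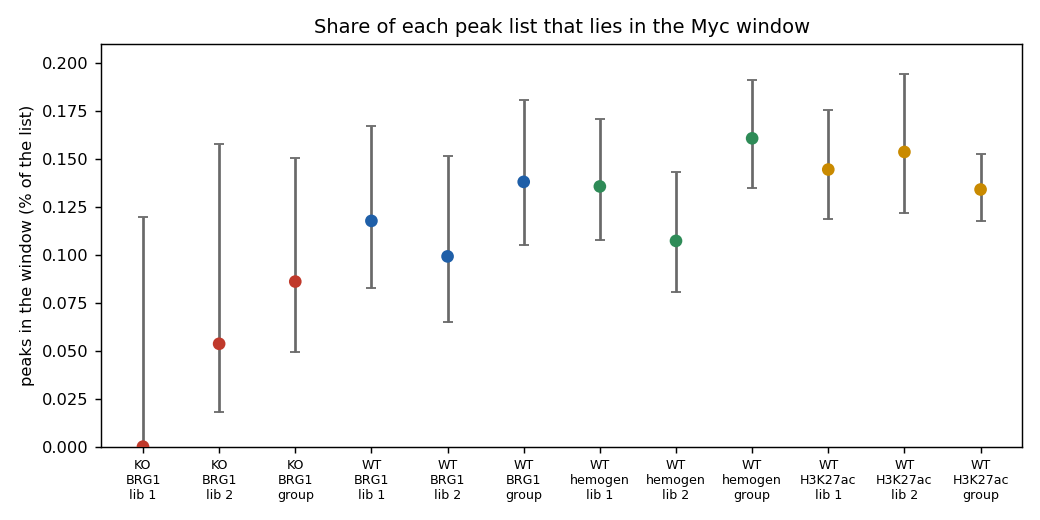
Share of each peak list that lies in the Myc window (vertical axis, percent) for KO BRG1, WT BRG1, WT hemogen and WT H3K27ac; points are lists and bars are 95% Wilson intervals, which cover counting error only. The KO BRG1 libraries sit at 0 and 0.0536%, the WT BRG1 libraries at 0.118% and 0.0992%, and the intervals of the 4 overlap.

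Depth differed between the genotypes in the same direction. Calling depth was worked out from the fold and p-value columns and the shortest peak width of each list. With WT BRG1 library 1 as the unit, it was 0.259 and 0.262 in the KO libraries and 0.861 in WT library 2. The depth of the immunoprecipitate itself came to 0.406 and 0.341 in the KO libraries and 1.04 in WT library 2. The heights of the WT window peaks were scaled to the KO calling depths, with their local background scaled alike. Of the 31 peaks of WT library 1, 5 then passed the weakest −log10 p of KO library 1 and 5 that of KO library 2, while 0 and 3 were called there, 0 and 2 of them among those that passed. Of the 21 peaks of WT library 2, 4 and 5 passed, while 0 and 3 were called, all 3 among those that passed. Over all 26329 peaks of WT library 1, 14.7% passed at the depth of KO library 1 and 9.90% were called, and 17.9% passed at the depth of KO library 2 and 16.7% were called. Of the peaks that passed, 36.8% were called in KO library 1 and 47.6% in KO library 2. Both shares were above those of all peaks, 9.90% and 16.7%, but most peaks that passed were not called. With the peaks of WT library 1 scaled alike to the depth of WT library 2, 58.8% of those that passed were called there. In the reverse direction, from WT library 2 to WT library 1, the share was 81.0%. Nearly all WT peaks passed in both of these comparisons, weak ones included. At the KO depths only 14.7% and 17.9% of the peaks of WT library 1 passed. The shares called thus rest on different sets of peaks and cannot be compared directly. The part of depth in the difference in number was not tested, and a peak that is not called is not thereby shown to be lost.

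The other marks had more peaks in the window. Hemogen had 72 of 53055 peaks in library 1 (0.136%) and 46 of 42866 in library 2 (0.107%). H3K27ac had 101 of 69882 in library 1 (0.145%) and 70 of 45545 in library 2 (0.154%). The window held 0 of 1543 KO BRG1 regions, 11 of 13213 WT BRG1 regions, 26 of 25631 hemogen regions and 42 of 25305 H3K27ac regions.

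The members were concentrated in the 400 kb at the Myc end. The first 4 steps of 100 kb held 10 of the 11 WT BRG1 regions, 19 of the 26 hemogen regions and 41 of the 42 H3K27ac regions. The densest step for all 3 marks was 62.1 to 62.2 Mb, in the part of the map that Pvt1 occupies. It held 4 WT BRG1 regions (36.4%), 10 hemogen regions (38.5%) and 29 H3K27ac regions (69.0%). Its BRG1 peaks numbered 0, 1 and 5 in KO libraries 1 and 2 and the KO group list, and 12, 9 and 22 in the corresponding WT lists. Joined across gaps of up to 10 kb, the 758 peaks formed 30 clusters, 16 of them a single peak. One cluster of 255 kb, from 62017378 to 62272585, held 555 of the 758 peaks.

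**Figure D2:**
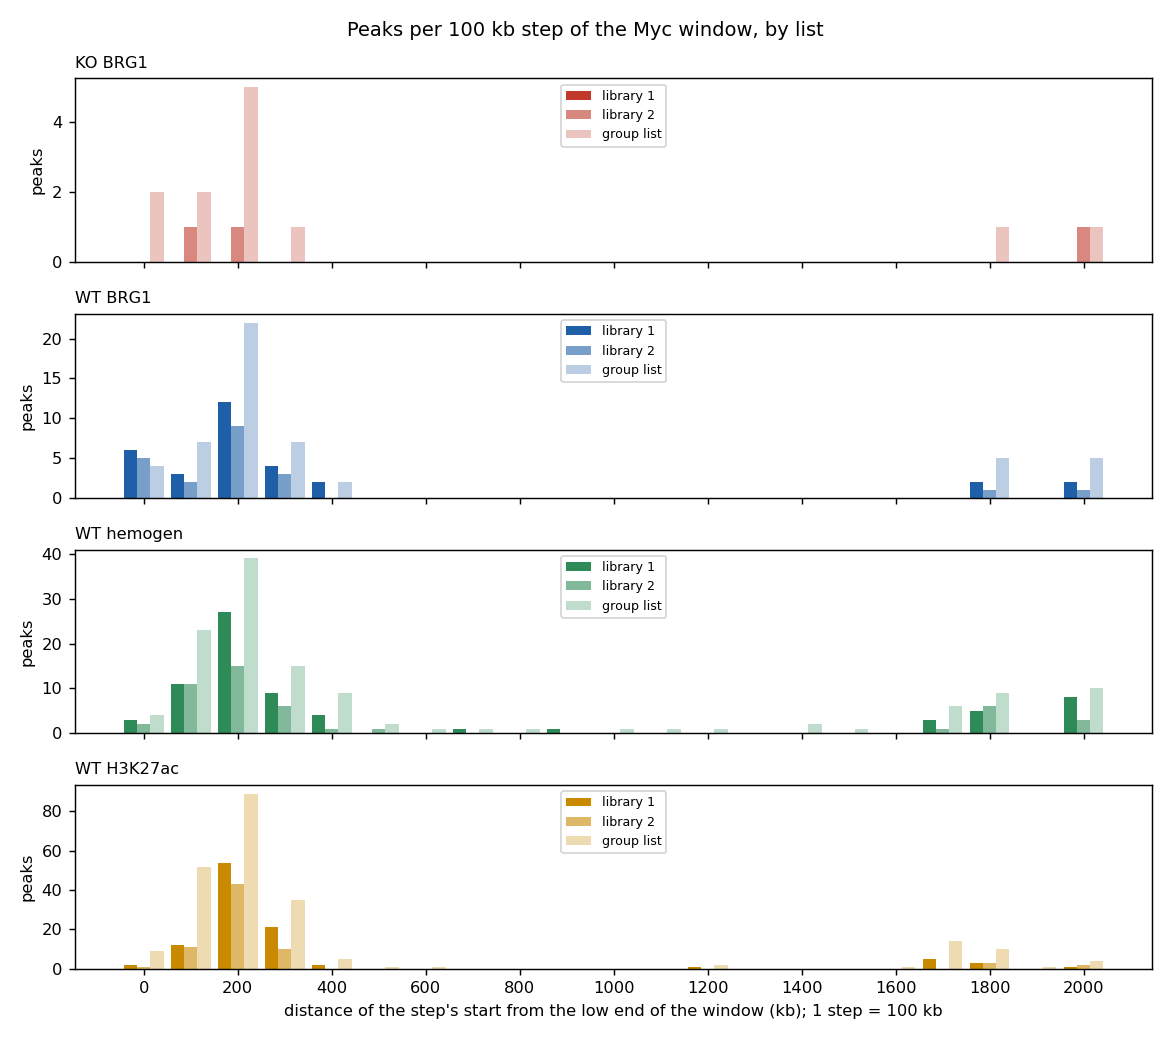
Number of peaks in each of the 21 steps of 100 kb (horizontal axis, distance of the step from the low end of the window in kb), in panels for KO BRG1, WT BRG1, WT hemogen and WT H3K27ac with separate vertical scales; bars are library 1, library 2 and the group list. Peaks of all 4 groups crowd the first 4 steps, are sparse over 62.4 to 63.6 Mb, and return at 63.6 to 63.8 Mb and in the last step.

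At the Myc end itself BRG1 was found in 3 neighbouring regions. The first, from 61983943 to 61985245, had no peak in either KO library and folds of 5.88 and 3.59 in the WT libraries. Its fold was 4.05 in the KO group list and 4.88 in the WT group list. The second, from 61985502 to 61987050, was in no KO list and had folds of 6.48 and 5.15 in the WT libraries. It was the strongest of the 3, with a strength of 88.5. The last of the 3, from 61987268 to 61988402, was in no KO list either, with WT folds of 5.13 and 3.43. Of these 3 regions, the KO group list thus held only the first. Strength comes from the WT libraries. In the WT group list the peaks at the first and second regions had percentiles 90.6 and 89.7 by −log10 p.

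All 3 overlapped a single hemogen region, from 61983343 to 61987873, the last of them only in part. Both BRG1 summits of that last region (61988138 and 61987885) lay beyond the hemogen region's end. Hemogen library 1 alone had a further peak, from 61987944 to 61988455, over the first of these summits. The hemogen group list had a peak from 61983312 to 61988580, over both. At 4531 bp the hemogen region was the widest of the window, and it had folds of 8.69 and 5.53 and a strength of 91.1. The only H3K27ac region of this step, from 61984247 to 61985246, had folds of 5.72 and 3.68 and overlapped the first BRG1 region. The other 2 BRG1 regions overlapped no H3K27ac region found in both libraries. H3K27ac library 1 alone had a peak of fold 4.80 at the second.

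The next 3 steps, 62.0 to 62.3 Mb, which Pvt1 occupies in part, held 7 WT BRG1 regions, 18 hemogen regions and 40 H3K27ac regions. The first BRG1 region, from 62037619 to 62038336, lay 52.2 kb from the summit at the Myc end. It had a fold of 3.93 in KO library 2, against 5.31 and 6.26 in the WT libraries. In the group lists its fold was 3.64 for KO and 4.24 for WT. This BRG1 region overlapped a hemogen region with folds of 5.16 and 4.94 and an H3K27ac region with folds of 4.37 and 3.66. Hemogen, BRG1 and H3K27ac thus met there in both WT libraries. A further region at 137 kb, from 62122429 to 62122976, was in no KO list and had WT folds of 4.42 and 4.12. It was also shared with hemogen and H3K27ac.

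The strongest BRG1 region of the window lay 173 kb from the summit at the Myc end, from 62157780 to 62159633. KO library 1 had no peak there, and KO library 2 had a fold of 9.42, against 6.82 and 6.89 in the WT libraries. In the group lists the fold was 5.78 for KO and 6.78 for WT. In KO library 2 the peak ranked 32 of 5592 by −log10 p, and its summit held 29 fragments as recovered from the authors' values. In the WT libraries the summits held 35 and 38 fragments, at percentiles 92.4 and 94.4 of their lists. The local background recovered alike was 1.18 in KO library 2 and 3.67 and 3.17 in the WT libraries. Fold is a ratio to that background, so the higher fold in KO library 2 does not show more BRG1. Ranks in lists of such unequal length show no change between genotypes. The KO libraries disagreed here: library 2 placed the peak near the top of its list and library 1 did not call it.

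Hemogen and H3K27ac were also strongest at this position. Hemogen had folds of 12.5 and 7.69 from 62157679 to 62159884, rank 263 of 25631 hemogen regions by strength. H3K27ac had folds of 7.57 and 5.96 from 62157585 to 62158984, rank 1166 of 25305. A smaller BRG1 region just before it, from 62157019 to 62157393, was in no KO list and had WT folds of 4.25 and 3.70. That small region was the only one of the 11 without a hemogen region, having a hemogen peak in library 1 alone, and it overlapped H3K27ac.

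Further along, a region at 205 kb, from 62191055 to 62191370, was in no KO list and had WT folds of 3.98 and 4.44. It overlapped a hemogen region, from 62189516 to 62191805, with folds of 8.04 and 5.72 and a strength of 90.6. It also overlapped an H3K27ac region with folds of 3.96 and 3.08. The KO group list had a peak in that hemogen region, from 62189922 to 62190076, outside the BRG1 region. A neighbouring pair followed. The region at 236 kb, from 62220957 to 62221833, was in no KO list and had WT folds of 6.28 and 4.18. The region at 237 kb, from 62222260 to 62223899, had no peak in either KO library and folds of 4.67 and 5.94 in the WT libraries. Its fold was 4.57 in the KO group list and 5.47 in the WT group list. The pair overlapped hemogen regions but no H3K27ac region found in both libraries. H3K27ac library 1 alone had a peak of fold 5.94 at 236 kb and of 4.14 at 237 kb. The H3K27ac group list had folds of 4.16 and 3.17 there. Hemogen at 236 kb had folds of 9.38 and 8.49, rank 456 of 25631 by strength, behind only the region at 173 kb within the window.

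**Figure D3:**
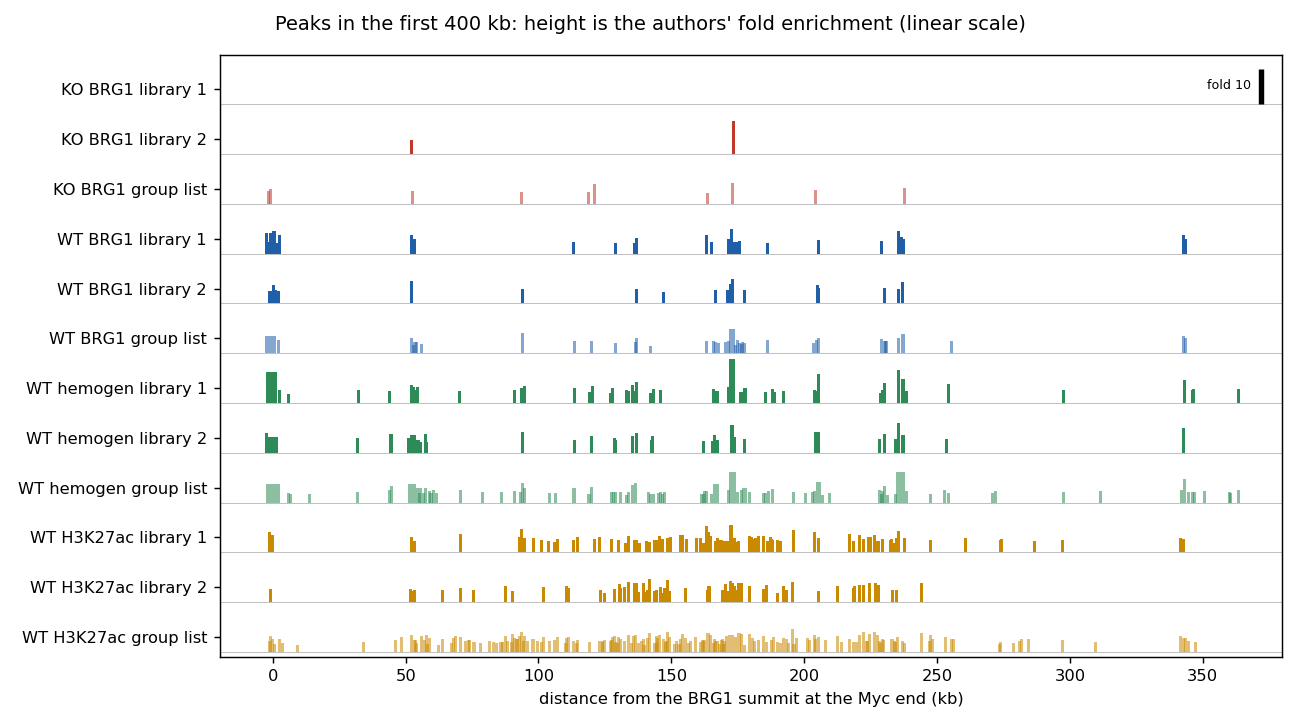
Every peak within the first 400 kb, by distance from the BRG1 summit at the Myc end (horizontal axis, kb), with 1 row per list from KO BRG1 at the top to WT H3K27ac at the bottom; bar height is the authors' fold, with a scale bar of fold 10, and narrow peaks are drawn wider than they are. The row of KO library 1 is empty, KO library 2 has peaks at 52.2 and 173 kb, and the hemogen rows reach their largest folds, 12.5 in library 1 at 173 kb and 8.49 in library 2 at 236 kb.

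H3K27ac formed a broad domain along this stretch. Its regions joined across gaps of up to 10 kb into a domain of 75.5 kb, from 62115908 to 62191366, with 29 regions that covered 16161 bp. Of 8459 such domains in the genome it ranked 72 by number of regions and 154 by bases covered. Within it lay 9 hemogen and 4 WT BRG1 regions. A second domain, from 62204136 to 62220896, had 8 H3K27ac regions and ranked 623 by bases covered. After the region at 173 kb, the strongest H3K27ac regions lay outside the regions of both factors. They lay from 62181280 to 62181993 (folds 6.20 and 5.50), 62149565 to 62150268 (5.71 and 4.64), 62119040 to 62120068 (4.62 and 5.75) and 62212140 to 62212752 (4.84 and 5.23). None of these 4 overlapped a hemogen or WT BRG1 region found in both libraries, although those at 62181280 and 62119040 overlapped a peak of the longer hemogen group list. The one at 62119040 also overlapped peaks of hemogen library 1, of fold 3.70 and 3.35.

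H3K27ac also varied between its libraries. In 11 of its 42 regions the percentiles in the 2 libraries differed by more than 50. The same share over all H3K27ac regions was not computed, so it is not shown to be particular to this window. One example, from 62148940 to 62149548, had folds of 7.37 and 3.31, at percentiles 98.9 and 30.0 of their lists. The KO group list held a BRG1 peak of fold 3.16 in that region.

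Beyond Pvt1 the flank was nearly empty. The 13 steps from 62.3 to 63.6 Mb held 0 WT BRG1 regions, 1 hemogen region and 0 H3K27ac regions, and no KO list had a peak there. The hemogen region, from 62328298 to 62329242, had folds of 6.50 and 7.1 and a strength of 89.9, the fifth highest of the 26. WT BRG1 library 1 had peaks of fold 5.39 and 4.25 that overlapped it, and WT BRG1 library 2 had none. H3K27ac library 1 had a peak of fold 3.79 there and library 2 had none. The longest stretch without a peak in any list, 158 kb from 62713297 to 62871333, followed, and the step from 63.2 to 63.3 Mb was the only empty one of 21.

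Peaks returned at the distance of about 1.7 Mb where the blood enhancers are known. The steps from 63.6 to 63.8 Mb held 4 hemogen regions, 0 WT BRG1 regions and 0 H3K27ac regions. The hemogen regions had folds of 4.18 and 4.90 (63652185 to 63652978), 4.52 and 6.75 (63709279 to 63710669), 4.40 and 3.63 (63735342 to 63735947) and 4.07 and 6.82 (63736398 to 63736765). Their strengths lay between 34.7 and 81.4, below the 5 strongest hemogen regions of the window, the weakest of which had 89.9. Hemogen was thus the only mark with regions shared by both of its libraries in this interval. In library 2 the regions from 63709279 and from 63736398 reached percentiles 92.2 and 89.5 of the list, against 70.5 and 65.0 in library 1.

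BRG1 and H3K27ac each had peaks there in both WT libraries, but the peaks of the 2 libraries did not overlap. The KO libraries had no peak, and the KO group list had 1, from 63736983 to 63737124, with a fold of 3.03 and a −log10 q of 1.41. WT BRG1 library 1 had peaks of fold 4.21 (63735502 to 63735731) and 4.24 (63736900 to 63737152), and WT BRG1 library 2 had 1 of fold 3.17 (63736552 to 63736816). These peaks of the 2 WT libraries lay close together without overlapping, so they made no region. That of fold 4.21 lay within the hemogen region from 63735342, and that of fold 3.17 overlapped the one from 63736398. H3K27ac library 2 had a peak of fold 4.07 at the hemogen region from 63736398. The WT BRG1 group list had peaks at the hemogen regions from 63709279, 63735342 and 63736398, and the H3K27ac group list at the last. Neither group list had a peak at the hemogen region from 63652185. H3K27ac had 8 peaks in library 1 and 3 in library 2, none of them shared. The group lists, which draw on more reads, had 5 WT BRG1 peaks, 15 hemogen peaks and 24 H3K27ac peaks in these 200 kb. No BRG1 or H3K27ac peak of this interval overlapped a peak of the other library of its group.

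The last step held the only BRG1 region outside the first 400 kb. It lay from 63997204 to 63998498, 2012 kb from the summit at the Myc end. KO library 1 had no peak there, and KO library 2 had a fold of 4.13, against 5.30 and 6.08 in the WT libraries. In the group lists the fold was 4.56 for KO and 7.16 for WT. Hemogen had folds of 4.65 and 5.23 and H3K27ac 3.76 and 4.36 at the same place. It was 1 of 3 clusters, with those at the Myc end and along Pvt1, that held regions of all 3 marks. The region lies next to the upper border of the window, and what lies beyond was not examined.

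**Figure D4:**
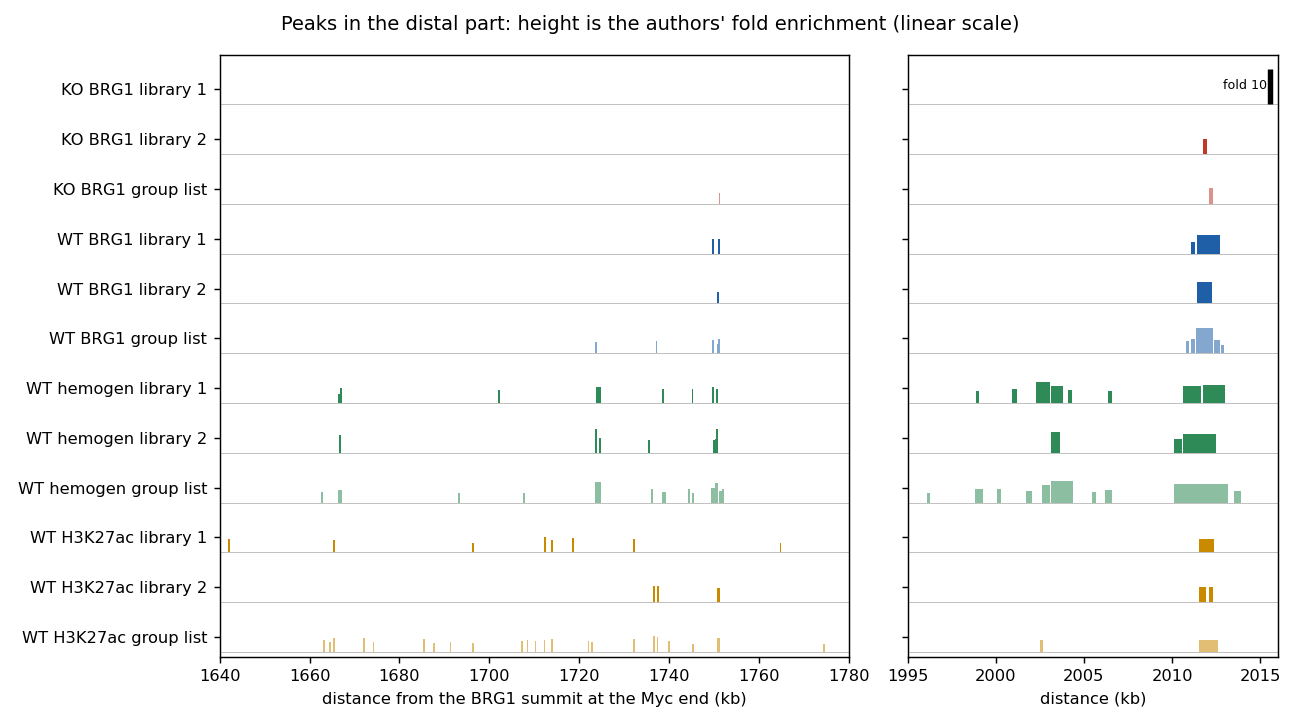
Peaks of the distal flank in 2 panels, by distance from the BRG1 summit at the Myc end (horizontal axes, kb, with different scales), with 1 row per list and bar height for the authors' fold. In the left panel the hemogen libraries have 8 and 7 peaks and the KO BRG1 libraries none. In the right panel KO library 2, both WT BRG1 libraries and the WT hemogen and H3K27ac libraries meet at about 2012 kb.

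Of the 11 WT BRG1 regions of the Myc window, 5 (45.5%, Wilson interval 21.3 to 72.0) were called in at least 1 KO list, against a background of 55.3% of all 13213 WT BRG1 regions. KO library 1 held 0 of 11 (background 18.4%), KO library 2 held 3 of 11 (27.3%, background 28.9%) and the KO group list held 5 of 11 (background 53.6%). In the window 0 of 11 were called in both KO libraries, with a background of 12.1%. The Wilson interval of each of these shares in the Myc window includes the background, and with 11 regions the intervals are wide. On the group lists alone, 7 of 52 WT peaks (13.5%) overlapped a KO peak, against 24.6% of all 37655.

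The called regions had strengths between 71.6 and 93.4 (median 84.5), and the 6 that were not called had strengths between 31.2 and 88.5 (median 49.0). The ranges overlap, since the second region at the Myc end (88.5) and the region at 236 kb (80.8) were called in no KO list. In all WT BRG1 regions the called share went with strength, from 25.9% in the weakest decile of strength to 91.6% in the strongest. Averaged over the deciles in which the 11 regions lie, it was 62.7%. H3K27ac overlapped 4 of the 5 called regions (80%) and 3 of the 6 not called (50%), with 81.7% and 41.9% over all WT BRG1 regions.

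**Figure D5:**
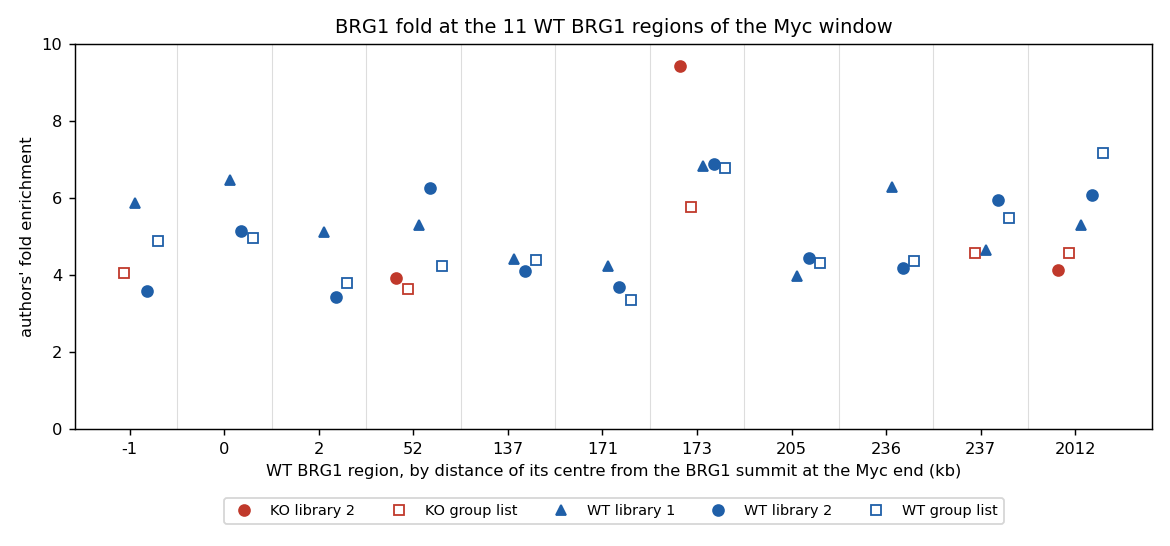
Authors' BRG1 fold (vertical axis) at each of the 11 WT BRG1 regions of the Myc window, ordered by distance of the centre from the BRG1 summit at the Myc end (horizontal axis, kb, not to scale); red marks are KO lists and blue marks WT lists, filled for libraries and open for group lists. KO library 1 has no peak at any region and is not drawn; the KO group list has 5 points, between 3.64 and 5.78, and KO library 2 has 3.

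Some KO peaks had no WT BRG1 peak beneath them. The KO group list had 12 peaks in the window, of which 8 (66.7%, Wilson interval 39.1 to 86.2) overlapped a BRG1 peak in at least 1 WT list, against 89.1% of all 13938. The other 4 had folds of 3.33 (62079318 to 62079462), 3.49 (62104655 to 62104950), 5.54 (62106809 to 62106950) and 4.02 (62189922 to 62190076). They lay between 164 and 1013 bp from the nearest WT BRG1 peak, and none was in a KO library list. The peak of fold 5.54 overlapped neither the hemogen nor the H3K27ac group list, while the other 3 overlapped both. All 3 peaks of KO library 2 lay in regions of WT BRG1, hemogen and H3K27ac.

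BRG1 of the Myc window nearly always coincided with hemogen, as it did elsewhere. A hemogen region overlapped 10 of the 11 WT BRG1 regions (90.9%, against 96.6% of all WT BRG1 regions), and an H3K27ac region overlapped 7 (63.6%, against 63.9%). Against the longer group lists, all 11 overlapped hemogen and all 11 overlapped H3K27ac. In the other direction 8 of 26 hemogen regions (30.8%, Wilson interval 16.5 to 50.0) overlapped BRG1, against 41.6% of all hemogen regions. These 8 had a median strength of 88.8, and the 18 hemogen regions without BRG1 had 63.8. Over all hemogen regions the medians were 83.6 with BRG1 and 51.0 without. Hemogen regions called in a KO BRG1 list were 7 of 26 (26.9%, background 32.5%).

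Many H3K27ac regions of the window overlapped neither factor. Of the 42 H3K27ac regions, 12 (28.6%, Wilson interval 17.2 to 43.6) overlapped hemogen and 8 (19%, 9.98 to 33.3) overlapped WT BRG1, against 49.0% and 37.2% of all H3K27ac regions. Both factors were at 7 of them, hemogen alone at 5, BRG1 alone at 1 and neither at 29 (69.0%, against 50.1% of all H3K27ac regions). Against the longer group lists, 16 of 42 overlapped neither factor (38.1%, against 36.9%). Most of the 42 lie in 1 domain and are not independent, so the intervals are too narrow and the difference from the genome was not tested. Against the longer hemogen group list the share was 57.1%, with 61.4% in the genome. A KO BRG1 list held a peak in 6 of 42 (14.3%, background 29.7%).

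Summit distances differed between libraries for hemogen. From the WT BRG1 summit of each of the 11 regions to the nearest hemogen summit the median distance was 59 bp in library 1 (4 to 865 bp) and 258 bp in library 2 (57 to 2774 bp), with 199 and 174 bp over all WT BRG1 regions. In library 1, 10 of the 11 lay within 100 bp, and in library 2, 1 of 11. The short distance to hemogen in library 1 was thus not seen in library 2. To the nearest H3K27ac summit the median was 94 bp in library 1 and 171 bp in library 2, with 233 and 273 bp over all WT BRG1 regions. WT BRG1 regions of the window had a median width of 1135 bp, against 780 bp in the genome, and H3K27ac regions 609 bp against 538 bp. Peaks of the window were found again in the other library at 48.4% and 66.7% for WT BRG1, 48.6% and 65.2% for hemogen, and 44.6% and 64.3% for H3K27ac (library 1 in library 2, then library 2 in library 1). The genome had 58.4% and 81.0% for WT BRG1, 58.1% and 78.0% for hemogen, and 40.2% and 63.5% for H3K27ac.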

How the data were processed

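The data are 8 peak lists of single libraries and 4 group lists, as deposited, without headers. Per the submitters' processing notes, which give no order, the tools were MACS2 2.2.7.1, Picard 2.21.4, Bowtie2 2.3.5 and SAMtools 1.9. Controls, filters and the making of a group list: not given in the sources used here. The build is taken as mm10, as the window is defined in it, and no position was converted. The authors' values for a peak are its fold, which is a ratio of the summit to local background, its q-value and p-value as −log10, a whole-number score and a summit offset. The score was not used for results. The smallest deposited −log10 q per list lay between 1.30 and 1.37.

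Peaks on 19 autosomes and X were kept. An overlap of 1 bp counted as shared. Sample titles gave the groups and replicate numbers. Peak names inside the hemogen lists carry library numbers other than the lists' own, so which hemogen library is called 1 or 2 rests on the record of each sample's list. An exact permutation test compared peak numbers. Depth was recovered by reading the deposited fold as height plus 1 over background plus 1. The p-value was read as the chance under Poisson counts of exceeding the height rounded down to a whole number. Divided by 1 factor per list, the heights were whole numbers within 0.01 for 100% of up to 6000 peaks per list. This reading is an assumption about the caller. Calling depth was the lowest background that several peaks of a list shared, divided by the list's shortest peak width. The depth of the immunoprecipitate was the calling depth divided by the list's factor. The shortest width was 172 and 191 bp in the KO BRG1 libraries and 187 and 176 bp in the WT BRG1 libraries. In the KO group list it was 142 bp, and the depth ratios depend on it. Wilson intervals and limits for a count of 0 (3 counts) cover counting error only. Overlap and depth steps were tested on simulated data (0 differences over 3000 intervals, and 4 of 4 depth settings recovered). The simulated folds and p-values were made by the same reading, so they cannot test the assumption about the caller. Division by the shortest width was not tested either. The software was SciPy 1.17.1, pandas 2.3.3 and NumPy 2.4.6 under Python 3.11.15, with Matplotlib 3.10.9 for plots.

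Members, lists and tests were chosen with earlier results of these data known. The naming rule took every WT BRG1 region, every region with a KO peak, the 5 strongest hemogen and H3K27ac regions and the densest steps. Its parts that need gene positions (the Myc and Pvt1 promoters, MYC partner genes, cell type markers) were not run, since no mouse annotation or genome was used here. The 4 input libraries have no list, and 12 K562 samples were not analysed here. Alternatives were a minimum −log10 q of 5, a 50% overlap, group lists, trimmed lists, a smaller window, a replicate block and each library left out.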

Additional observations from a re-analysis of the deposited data

How the results depend on the processing

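The difference in BRG1 peaks per library, −24.5 for KO minus WT, kept its sign in 8 of 8 alternatives, between −29.5 and −4. It came to −13 at a minimum −log10 q of 5, −16 without the first 200 kb and the last 100 kb, and −4 with every BRG1 list trimmed to 3205 peaks. With the libraries paired by number (replicate block) it stayed −24.5 by construction. The planned log2 ratio could not be computed with KO library 1 at 0, so differences were used, an alternative chosen after seeing the data, as was leaving out the KO group list. The labels do not say that a number marks a shared litter or day, so the libraries share only a number. Leaving out 1 library gave −29.5 to −19.5.

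The KO call share of the 11 WT BRG1 regions (45.5%) was 13.5% on group lists and 0% when a call in both KO libraries was required. With 1 library left out it was 0% to 27.3%. Leaving out a KO library also set the KO group list aside. The share was then 27.3% without KO library 1 and 0% without KO library 2, since KO library 1 has no peak in the window. Overlap of BRG1 with hemogen was 64.5% to 100% when 1 library was left out, and 100% at a −log10 q of at least 5. Overlap of BRG1 with H3K27ac was 37.5% at that threshold and 47.6% to 90.9% with 1 library left out, and that of hemogen with BRG1 16.7% to 50.0%. Overlap of H3K27ac with hemogen stayed between 19.8% and 38.1% in 7 of 7 alternatives. Region numbers moved most. On group lists they were KO BRG1 12, WT BRG1 52, hemogen 126 and H3K27ac 224, and H3K27ac had 12 regions at a minimum −log10 q of 5. With 1 library left out they were 0 to 3, 21 to 31, 46 to 72 and 70 to 101, since a region then needs only a peak of the other library. Only the difference in peak number could be labelled reversed, and it kept its sign in 8 of 8 alternatives. Its p-value cannot pass 0.05 in this design, so its side of 0.05 was fixed in advance. Of 62 alternatives, 43 stayed within the limits set for the result. For the difference these were the same sign and side of 0.05. They were the Wilson interval of the value for a share, and 1.5 times for a number of regions. Those limits are wide, and shares changed by over 1.5 times within them.

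With 2 libraries a group and KO lists called at a depth of 0.259 and 0.262 of WT library 1, the lists limit what can be said of weak sites, such as the BRG1 peaks about 1.7 Mb from Myc.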
